A study of Drosophila melanogaster with 6 samples.

Results

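In unfertilized Drosophila melanogaster eggs, 63 maternal transcripts were at least 2 times less abundant, in TPM (transcript abundance corrected for length and sequencing depth), when the mother overexpressed MEK F53S instead of wild-type MEK in her germline. A gene was taken when its mean was 5 TPM or more with wild-type MEK, its mean with wild-type MEK was at least 2 times its mean with MEK F53S, and its lowest wild-type MEK library lay above its highest MEK F53S library. In wild-type MEK eggs 6340 of 13943 features reached that level, and 80 of them met these values. The rule also sets aside 9 genes by symbol, genes on chromosome 4, and mitochondrially encoded, histone, ribosomal protein and inaF genes, which took out 17 of the 80 and left 0.994% of the 6340. Because the levels in both groups chose these transcripts, their differences between groups are given as a description and are not tested.

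Both groups were eggs laid over 0 to 30 min by females that carried MTD-GAL4, a maternal driver that turns on transgenes in the female germline, and had been mated to sterile males. One group of mothers overexpressed wild-type MEK (genotype MTD>MEK), whose fly gene is Dsor1, and the other overexpressed F53S, a gain-of-function MEK mutant of the kind found in RASopathies, which are congenital disorders of overactive RAS signalling. The constructs sat at the same genomic position in 2 fly lines, 1 per group, so the transgene and the background of its line cannot be told apart, and no group without overexpression was analysed here. Each group had 3 libraries of about 20 eggs per collection, described as biological replicates, with 37224814 to 48756295 counts per library.

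A mature fly egg does not transcribe its genome. Its mRNA is made by the nurse cells of the germline during oogenesis, loaded into the oocyte, and then translated, stored or destroyed after egg activation. The level of a maternal transcript in a laid egg therefore depends on how much was supplied and how much has been degraded, and in pooled eggs fewer eggs with the transcript and less of it per egg cannot be told apart. MEK phosphorylates ERK, and the F53S change raises the activity of the kinase.

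All 15 matched egg markers, among them osk, nos and CycB, were present, with sums of 11900 to 12752 TPM with wild-type MEK and 10623 to 11678 TPM with MEK F53S. Eggshell markers summed to at most 3.76 TPM in any library and gut markers to at most 0.807 TPM, and no transcript of the 63 was on a marker list. Some other lists were higher with MEK F53S without overlap. Haemocyte markers were at 1.54 to 4.08 against 7.21 to 8.95 TPM, and fat body markers at 1.15 to 2.45 against 5.51 to 9.01 TPM. Muscle markers, mostly Tm1, were at 375 to 400.5 against 506 to 547 TPM. Testis markers, mostly twe, were lower, at 305 to 323 against 280.0 to 293 TPM, and neuron markers overlapped. In every library, 6 of 12 haemocyte, 5 of 10 fat body, 6 of 13 muscle and 10 of 13 testis markers were at 0 TPM. Early zygotic markers summed to 1.61 to 2.90 TPM with wild-type MEK and to 16.4 to 58.4 TPM with MEK F53S, and mitochondrially encoded genes took 5.59 ± 0.614% and 3.32 ± 0.421% of TPM (SD, n = 3 each, two-sided exact permutation p = 0.1, the smallest that 3 against 3 allows). The part of any of these in the results was not tested. Wild-type MEK replicate 1 and MEK F53S replicate 2 stood apart from the others of their group, since pairs with them gave a chi-square of counts over genes, divided by its degrees of freedom, of 118 to 164, and the remaining pairs gave 46.8 and 29.4. Without both of these libraries, 58 of the 63 transcripts still met the rule, and the rule then took 125 genes. The 63 were chosen with groups already apart, which leaving libraries out cannot undo. Only the 2-fold limit and the 5 TPM minimum could fail, so the 58 are largely fixed by the rule. Without MEK F53S replicate 2 alone it took 109.

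The 63 ratios of means, wild-type MEK over MEK F53S, ran from 2.003 to 70.7, with a median of 2.46. The ratio was at least 4 in 17 transcripts and at least 8 in 5, and it lay under 2.5 in 32. Their median log2 ratio of MEK F53S over wild-type MEK was -1.30, where the median of all 6340 genes was 0.11. With the same rule turned around, 414 of the 6451 genes that reached 5 TPM with MEK F53S (6.42%) were at least 2 times more abundant with MEK F53S, against 80 of 6340 (1.26%) in the direction described here. The transcripts were less abundant than most in wild-type MEK eggs, with a median of 30.3 TPM against 61.3 TPM for all 6340 genes, and 12 of them had means of 101 to 309 TPM.

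**Figure D1:**
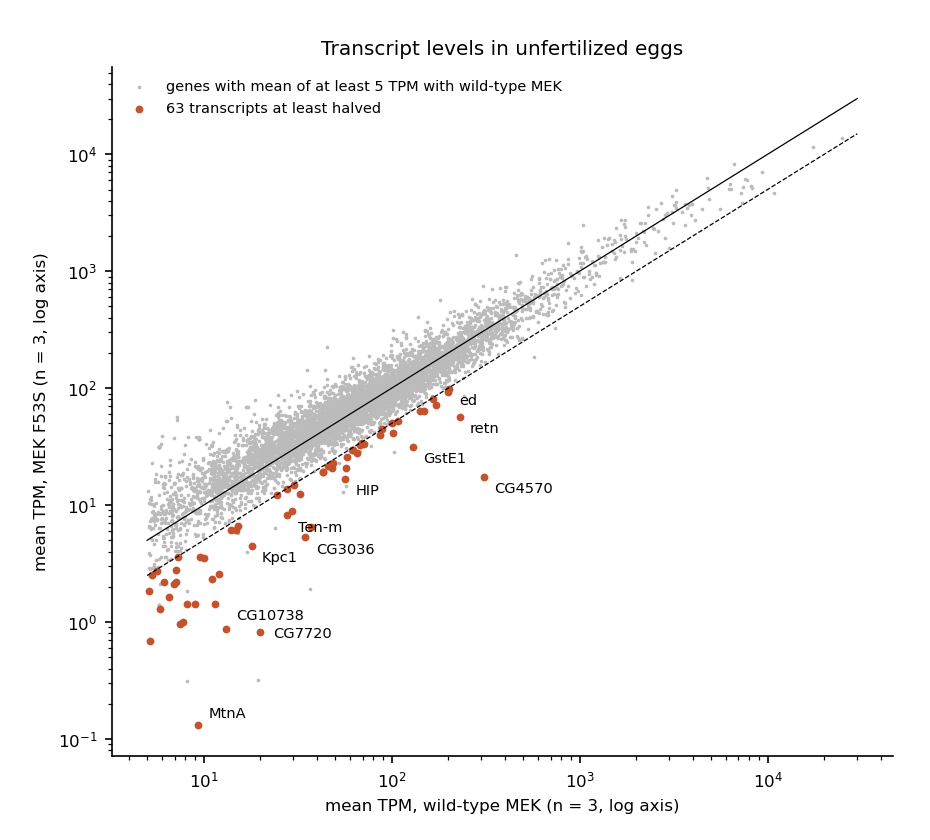
Mean TPM of each gene with MEK F53S (y) against wild-type MEK (x), both on log axes, for genes with at least 5 TPM with wild-type MEK. The solid line marks equal levels and the dashed line a ratio of 2, and the 63 transcripts described (red) lie on or under it, from MtnA at 0.132 TPM to ed at 99.2 TPM with MEK F53S.

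At the edge of the rule, orb2, Dcr-1 and CG3638 were just inside with ratios of 2.01, 2.004 and 2.003. Just outside were Drep1, hob and Ubr1 with ratios of 1.9995, 1.995 and 1.99, so the limit separates genes that hardly differ. A further 9 genes had a ratio of at least 2 but groups that overlapped. When each of the 6 libraries was left out in turn, 40 of the 63 met the rule every time. Here too the groups of the 63 stayed apart by construction, and only the 2-fold limit or the 5 TPM minimum could fail.

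The transcript with the highest level was CG4570, a gene without a named function (3R, 10856807 to 10858066 in dm6). It stood at 326, 307 and 293 TPM in the wild-type MEK libraries and at 23.8, 15.1 and 13.6 TPM in the MEK F53S libraries, a ratio of means of 17.7. Its libraries varied little with wild-type MEK (309 ± 16.7 TPM, SD, n = 3), and the highest MEK F53S library was far under the lowest wild-type MEK library.

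Among 6 transporters, channels and receptors, ratios ran from 2.14 to 24.4. CG7720, a predicted sodium-coupled solute symporter of the SLC5 family, was at 15.1, 22.9 and 22.02 TPM with wild-type MEK and at 0.464, 1.01 and 0.985 TPM with MEK F53S. CG10738, a predicted receptor guanylyl cyclase that would make cGMP, was at 11.6, 13.3 and 14.4 TPM and at 0.638, 0.928 and 1.07 TPM. Both were thus close to absent in all 3 MEK F53S libraries. CG3036, a predicted transporter of the SLC17 phosphate and anion family, was at 35.2, 36.4 and 32.6 TPM with wild-type MEK and at 9.25, 4.36 and 2.40 TPM with MEK F53S, where the libraries spread widely. The potassium channel gene SLO2 went from 42.9 ± 3.97 to 19.3 ± 3.18 TPM, the predicted amino acid transporter gene CG13384 from 70.8 ± 5.64 to 33.1 ± 2.91 TPM, and the heat-activated TRP channel gene pyx from 7.11 ± 0.761 to 2.20 ± 0.723 TPM (SD, n = 3 per group in each).

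**Figure D2:**
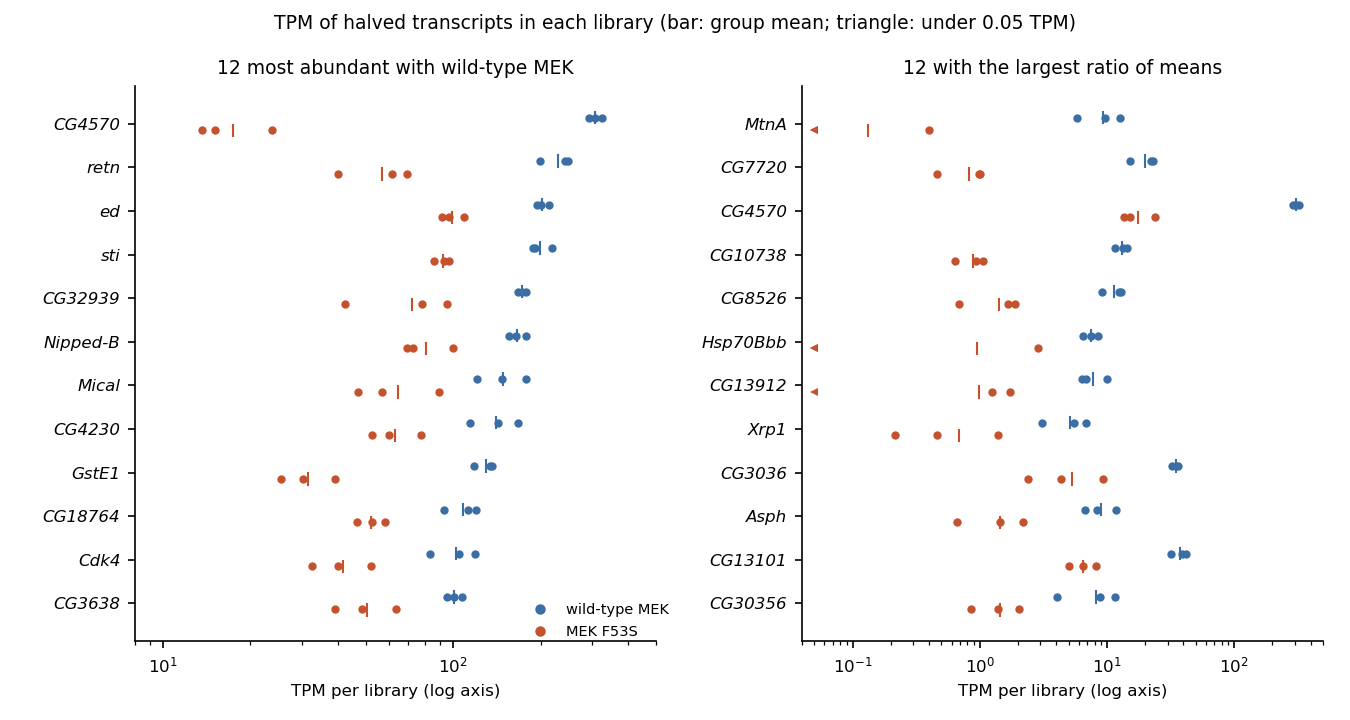
TPM in each library (log axis) of the 12 most abundant of the 63 transcripts (left) and of the 12 with the largest ratio of means (right), wild-type MEK in blue and MEK F53S in red. CG4570 is in both panels, at 293 to 326 TPM and 13.6 to 23.8 TPM, and the groups are apart in every row because the rule required it.

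Transcripts for the cell surface and the cytoskeleton included abundant maternal messages. The gene ed encodes Echinoid, an immunoglobulin-domain adhesion protein of epithelial junctions that also restrains EGF receptor signalling. It was at 200.3, 194 and 213 TPM with wild-type MEK and at 97.01, 109 and 91.6 TPM with MEK F53S. Ten-m, a teneurin that acts in cell and synapse matching, was at 29.9, 25.4 and 28.4 TPM and at 8.23, 8.82 and 7.66 TPM, with little spread in either group. The gene plx (pollux) had means of 32.4 ± 3.09 and 12.6 ± 4.95 TPM, and tyn (trynity), which encodes a zona pellucida domain protein, 7.12 ± 0.0995 and 2.79 ± 0.760 TPM. Mical, the enzyme that disassembles actin filaments by oxidation, is described below with the effective lengths.

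Detoxification and stress genes included a cluster of GstE genes. GstE1, a glutathione S-transferase that conjugates glutathione to reactive compounds, was at 118, 134 and 136 TPM with wild-type MEK and at 39.1, 25.5 and 30.3 TPM with MEK F53S. GstE8 stood at 59.3, 70.2 and 65.9 TPM and at 32.5, 29.9 and 21.2 TPM. GstE7 and GstE9 had lower levels, with means of 43.1 ± 7.52 against 19.1 ± 4.76 TPM and of 12.05 ± 4.32 against 2.57 ± 1.71 TPM. GstE7, GstE8 and GstE9 follow each other on 2R (18406924 to 18409835) with gaps of 145 and 92 bases, and GstE1 lies in the same cluster at 18398393. They were the only neighbouring pairs among the 63.

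None of the other GstE genes above 10 TPM was lower without overlap. Any that was also halved would be among the 63, so the rule shapes this contrast and the sums below. GstE3 and GstE5, which were lower without overlap, averaged at most 1.08 TPM. GstE6, next to GstE7, was at 53.4, 38.6 and 15.8 TPM with wild-type MEK and at 38.3, 52.5 and 27.8 TPM with MEK F53S, so its groups overlapped. GstE12, at another place on 2R, was higher with MEK F53S, at 204, 251 and 249 TPM against 144, 80.4 and 75.4 TPM. The 10 GstE genes outside the 63 summed to 267 ± 45.5 TPM with wild-type MEK and to 408 ± 34.3 TPM with MEK F53S, and the 4 described to 250 ± 22.1 and 81.2 ± 16.1 TPM. Similar sequences within the family may share reads, so values of single copies are uncertain.

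The remaining genes of this group were scarce. MtnA, a metallothionein that binds heavy metals, had the largest ratio but rested on 37, 19 and 40 counts with wild-type MEK and on 0, 0 and 14 counts with MEK F53S. MtnB to MtnF were listed at 0 TPM in every library. Xrp1, a bZIP factor of cell competition and DNA damage responses, was at 5.55, 6.82 and 3.08 TPM and at 0.215, 1.40 and 0.458 TPM. Hsp70Bbb, 1 of 6 near-identical Hsp70 copies, was at 8.48, 6.51 and 7.55 TPM with wild-type MEK and at 2.87, 0 and 0 TPM with MEK F53S, while its neighbour Hsp70Bb was listed at 0 TPM in all wild-type MEK libraries and at 2.81, 6.71 and 6.81 TPM with MEK F53S. All 6 copies summed to 65.1 ± 3.09 and 42.8 ± 3.66 TPM, so the ratio of the single copy is not that of the family. The aldehyde oxidase gene AOX1 went from 15.1 ± 3.96 to 6.63 ± 0.654 TPM, and Asph, an aspartyl beta-hydroxylase gene, from 8.97 ± 2.53 to 1.44 ± 0.771 TPM. MP1, a protease gene of melanization, had 7.30 ± 1.85 and 3.59 ± 1.25 TPM, and all of its exons lie opposite Vps24, so these values are uncertain: the libraries were directional, but the strand setting of the quantification was not stated.

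HIP, a partner of the chaperone HSC70, and its relative HIP-R differed in opposite directions. HIP was at 58.2, 54.7 and 56.2 TPM with wild-type MEK and at 17.4, 18.6 and 14.5 TPM with MEK F53S. HIP-R, which lies near HIP on the X chromosome (3789969 to 3792477, with HIP at 3799150 to 3801570), was at 68.7, 64.002 and 69.99 TPM and at 145, 125 and 140 TPM, and its rise on counts was called (log2 fold change 0.81, edgeR adjusted p = 0.00154, higher in 3 of 3 libraries). Together they summed to 124 ± 4.52 and 154 ± 9.59 TPM. Reads of similar copies can be assigned to either, so the split between them is uncertain. Kpc1, a RING ubiquitin ligase subunit, was at 19.4, 16.4 and 18.2 TPM and at 4.49, 4.30 and 4.74 TPM, whereas its partner Kpc2 averaged 6.37 and 6.32 TPM with overlapping groups.

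**Figure D3:**
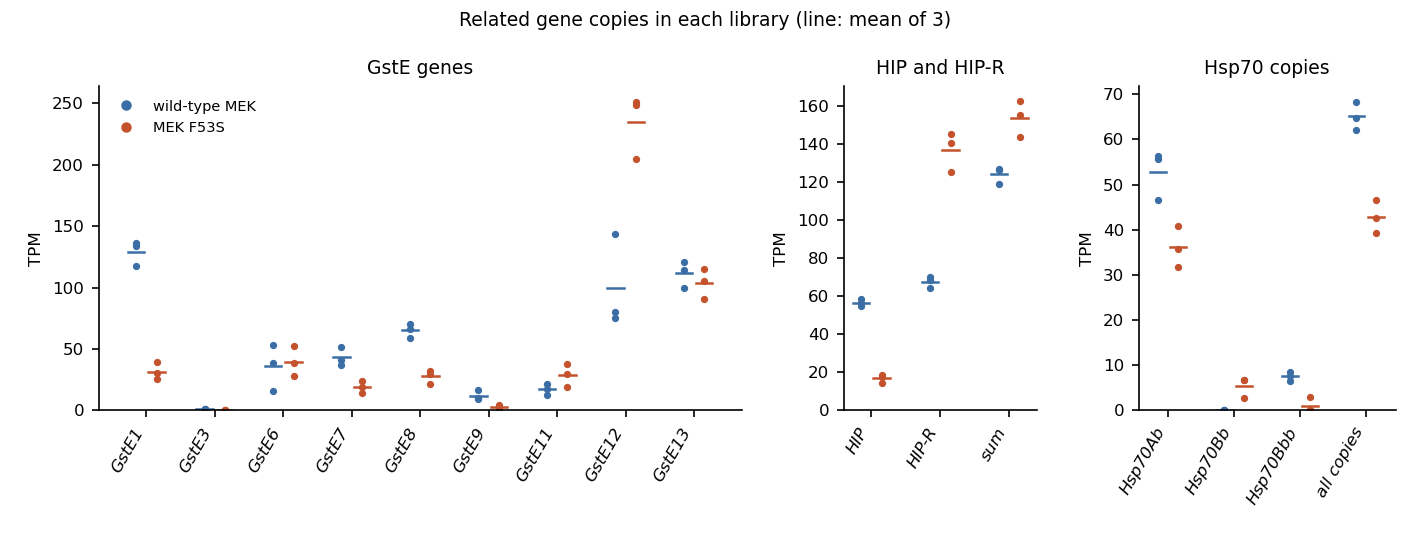
TPM per library (points) and group mean (lines) of GstE genes with at least 1 TPM in a library, of HIP, HIP-R and their sum, and of Hsp70 copies with the sum of all 6, wild-type MEK in blue and MEK F53S in red. GstE1, GstE7, GstE8 and GstE9 are lower and GstE12 is higher with MEK F53S, and HIP-R (125 to 145 TPM) and HIP (14.5 to 18.6 TPM) differ in opposite directions.

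Of 6 protein kinase genes, sti was the most abundant. It encodes Sticky, the citron kinase of cytokinesis, and stood at 188, 191 and 219.7 TPM with wild-type MEK and at 85.9, 93.2 and 96.6 TPM with MEK F53S. Its functional partners pav, tum, pbl, scra and Rho1 were not lower: pav and Rho1 were higher in all 3 MEK F53S libraries and the others overlapped. Rho1 was at 90.02 ± 5.72 TPM with wild-type MEK and at 148 ± 18.5 TPM with MEK F53S. Cdk4, a cyclin D kinase, was at 105, 83.01 and 119 TPM and at 52.0, 32.6 and 40.1 TPM, while the level of CycD itself was 175 ± 10.8 and 174 ± 6.75 TPM. The gene dap, a CDK inhibitor, was lower without overlap, at 117 ± 12.8 and 66.6 ± 20.5 TPM, and Rbf and Cdk2 overlapped. The gene nonC, which encodes the SMG1 kinase of nonsense-mediated mRNA decay, was at 52.6, 58.4 and 60.96 TPM and at 15.7, 30.3 and 16.7 TPM. Lrrk, the gene of the LRRK family kinase, had means of 48.8 ± 3.54 and 23.1 ± 6.61 TPM, and Pka-C2 and Srpk79D had under 7 TPM with wild-type MEK.

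Chromatin, RNA and recombination genes lay close to the limit of the rule, with a median ratio of 2.06 in 10 genes. The largest ratio there was that of retn, which encodes Dead ringer, an ARID-domain transcription factor of early embryonic patterning, at 199, 249 and 242 TPM with wild-type MEK and at 69.1, 61.6 and 40.01 TPM with MEK F53S. Nipped-B, the loader of cohesin onto chromosomes, was at 179, 156 and 164 TPM and at 69.4, 99.4 and 72.9 TPM. The recombination gene spn-D was at 55.2, 60.8 and 56.7 TPM and at 26.6, 24.1 and 27.1 TPM. The histone acetyltransferase gene enok had 69.3 ± 12.1 and 34.3 ± 7.27 TPM. Dcr-1, the Dicer that makes microRNAs, was at 85.4, 89.4 and 93.1 TPM and at 31.9, 62.2 and 39.7 TPM, the highest MEK F53S value being that of replicate 2. The CPEB family gene orb2 had 27.8 ± 4.43 and 13.8 ± 4.14 TPM, and its relative orb was higher with MEK F53S, at 332, 541 and 340.03 TPM against 210.4, 110 and 94.1 TPM. The zinc finger genes CG17359 and CG18764 had 67.7 ± 2.66 and 108 ± 13.9 TPM with wild-type MEK and 32.9 ± 3.49 and 52.3 ± 5.74 TPM with MEK F53S. CG13185, the gene of the very large ribosome assembly ATPase midasin, went from 24.5 ± 2.54 to 12.1 ± 4.60 TPM. For pre-mod(mdg4)-X, a locus whose exons are shared in full with other mod(mdg4) transcripts on the same strand, the values of 9.53 ± 3.01 and 3.61 ± 0.320 TPM are uncertain.

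The last 24 transcripts were placed in no role group, and their ratios ran from 2.003 to 17.7. After CG4570 the most abundant was CG32939, at 168, 179 and 173 TPM with wild-type MEK and at 42.4, 78.04 and 95.3 TPM with MEK F53S. CG4230 had 141 ± 26.4 and 63.2 ± 12.8 TPM, CG3638 had 101 ± 6.13 and 50.4 ± 12.2 TPM, and tay (tay bridge) had 86.8 ± 5.47 and 39.5 ± 6.58 TPM. CG13101 had a larger ratio of 5.73, at 31.7, 38.7 and 41.9 TPM against 6.46, 5.01 and 8.13 TPM. Arc1, a capsid-like gene derived from a retrotransposon, was at 52.8, 56.3 and 75.96 TPM and at 42.4, 23.2 and 23.2 TPM, so replicate 1 of MEK F53S came close to the wild-type MEK range. CG8526, CG13912, CG30356, CG10151 and CG13738 had ratios of 4.56 to 8.09 at means of 5.88 to 11.5 TPM with wild-type MEK. Some of these rested on few counts. CG13738 had 32, 19 and 20 counts with wild-type MEK and 6, 0 and 11 with MEK F53S. CG30356 had 41, 69 and 96 against 18, 13 and 10, and CG13912 had 108, 58 and 60 against 18, 0 and 17. Of the 63, 8 had under 100 counts in a wild-type MEK library. FBgn0265988 was not paired with a symbol or a position, so that its chromosome could not be checked, and had 48.2 ± 2.19 and 20.9 ± 5.35 TPM.

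TPM divides counts by an effective length that Salmon sets per gene and library, so the same transcripts were set beside their TMM-normalised counts. All 63 passed the filter on low counts, and 58 were at least 2 times lower on counts as well, with a median log2 fold change of -1.40. The 5 that were not were Mical (-0.36), orb2 (-0.89), CG32809 (-0.92), Dcr-1 (-0.98) and tay (-0.99). The effective length itself was higher with MEK F53S by a median of 0.22 on the log2 scale over the 63 and of 0.20 over all 6340 genes. It was over 0.5 higher in 7 of the 63, which were MtnA, CG7720, CG8526, Kpc1, nonC, Mical and MP1. The share of all 6340 genes above 0.5 is not given here, so whether 7 of 63 is unusual cannot be read from this count.

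MtnA, Xrp1 and Mical departed the most between the scales. Mical had 6302, 5949 and 6238 counts with wild-type MEK and 4640, 7463 and 5914 counts with MEK F53S, which overlap, whereas its effective length went from 258, 198 and 260 bases to 456, 505 and 587 bases. Its TPM was 120.5, 179 and 147 against 56.6, 89.5 and 47.1, so the groups were apart on TPM and not on counts. The gene has 14 annotated transcripts. MtnA was at 68.5 bases in wild-type MEK and at 169, 169 and 1222 bases with MEK F53S, and its log2 ratio of -6.14 on TPM was -3.14 on counts. For CG7720 the counts alone, at 594, 619 and 649 against 21, 38 and 46, gave a log2 fold change of -4.49. Xrp1 departed the other way, with -2.90 on TPM and -3.80 on counts.

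**Figure D4:**
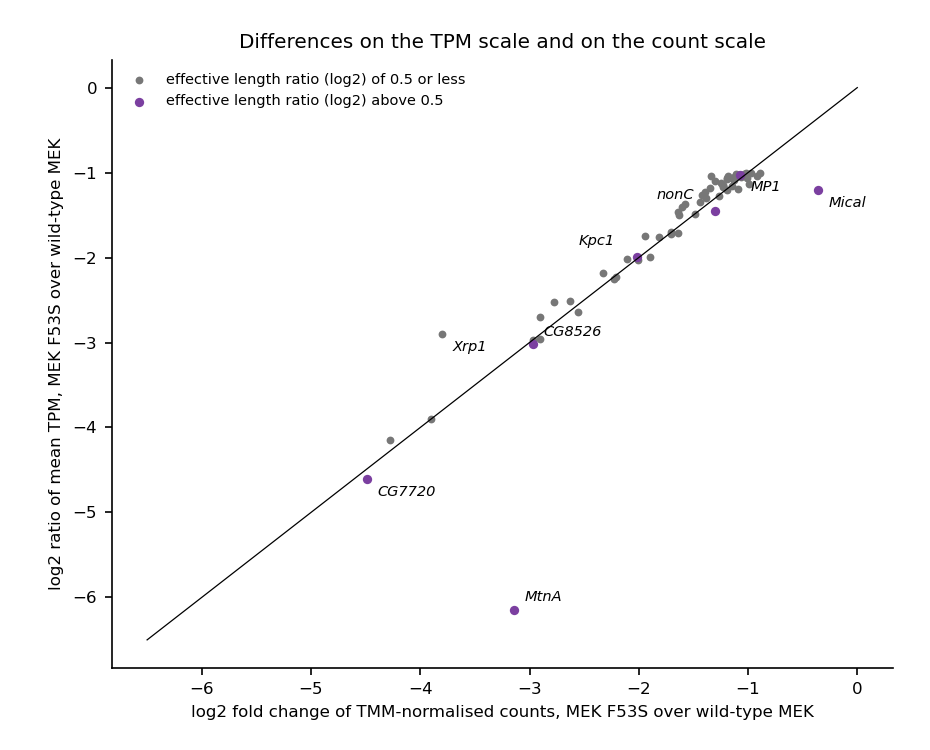
Log2 ratio of mean TPM (y) against the log2 fold change of TMM-normalised counts (x), MEK F53S over wild-type MEK, for the 63 transcripts, with the line of equal values. Purple points have an effective length over 0.5 higher with MEK F53S on the log2 scale, and of these Mical (-0.36 on counts) and MtnA (-3.14 on counts) lie far under the line.

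Within groups, the 63 varied more with MEK F53S than with wild-type MEK. Their median coefficient of variation was 14.1% with wild-type MEK, close to the 12.6% of all 6340 genes, and 24.9% with MEK F53S, where that of all genes was 12.4%. Division by a smaller mean and lower counts raise such a coefficient, and their part was not tested. With wild-type MEK, replicate 1 held the lowest value of 34 of the 63 and of 32.1% of the other genes. With MEK F53S, replicate 2 held the highest value of 27 of the 63 (42.9%) and of 53.3% of the other genes. The rule sets the lowest wild-type MEK value against the highest MEK F53S value, so it shapes both of these contrasts with the other genes. All 4 of the 63 with an effective length of 5000 bases or more, as were 81.9% of 155 other genes of that length, were highest in MEK F53S replicate 2.

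The 63 were spread over all large chromosome arms, with 21 on 3R, 15 on 2R, 10 on 3L, 9 on X and 7 on 2L. As a share of the genes at 5 TPM or more on each arm this was 1.43%, 1.22%, 0.853%, 0.829% and 0.657%. On 3R, 9 of the 63 lay between 9693079 and 12977471, a stretch chosen after the positions were seen, which were CG32939, MtnA, CG8526, Mical, CG4570, CG18764, CG14715, Hsp70Bbb and CG7381. They were 5.03% of the 179 genes at 5 TPM or more in that stretch, and 10 other genes there (5.59%) met the turned-around rule.

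The genes next to the 63 were tested with the rest. Neighbours that were themselves among the 63 were left out, while the shares of all genes tested include the 63. Of 119 flanking genes, 75 could be tested, and 12 of these (16%) were lower and 9 (12%) higher in MEK F53S at an adjusted p under 0.05 in edgeR. Among all 7539 genes tested, 12.9% were called lower and 12.3% higher, and the median log2 fold change was 0.08 for the neighbours and 0.05 for all. RhoGAP1A, the gene of a GTPase-activating protein next to tyn, fell from 152 ± 5.89 to 84.5 ± 8.32 TPM (log2 fold change on counts -0.98, edgeR adjusted p = 0.000373). It is on the same strand as tyn. Exons of other genes, not of RhoGAP1A, lie opposite 17.5% of those of tyn. Rab23, a Rab GTPase gene next to plx, fell from 140 ± 13.5 to 86.3 ± 12.2 TPM (-0.89, edgeR adjusted p = 0.00222), and conu and CG17883 on the sides of Nipped-B had log2 fold changes of -0.76 and -0.61. CG34293, next to spn-D, rose from 1.69 ± 0.992 to 15.1 ± 1.86 TPM (2.74, edgeR adjusted p = 0.00724), and CG4511, beside CG4570, rose by 0.78 on the log2 scale (edgeR adjusted p = 0.00839). All 6 of these calls were kept when any single library was left out.

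**Figure D5:**
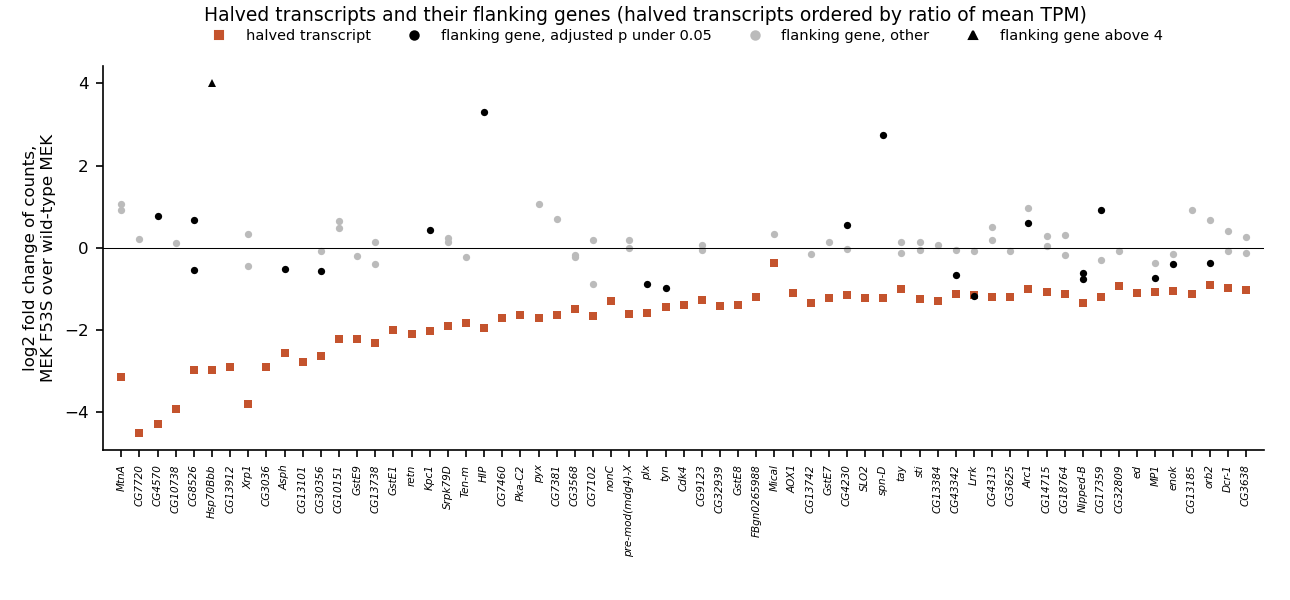
Log2 fold change of counts, MEK F53S over wild-type MEK, of each of the 63 transcripts (red squares, ordered by ratio of mean TPM) and of the tested genes next to them (circles, black where the edgeR adjusted p was under 0.05). A triangle marks Hsp70Bb, beyond the axis and listed at 0 TPM with wild-type MEK. The neighbours lie on both sides of 0, with 12 called lower and 9 called higher of 75.

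Families and pathways related to leading transcripts were examined through genes outside the 63, and their counts are to be read against the 12.9% lower and 12.3% higher among all 7539 genes tested. Of 63 tested ubiquitin ligase genes other than Kpc1, 9 were called lower and 2 higher, with a median log2 fold change of -0.11 where that of all tested genes was 0.05. The lower ones included Ubr1, given above at the edge of the rule, hyd, a large HECT-domain ligase (-0.69, edgeR adjusted p = 0.00284), and poe, a giant calmodulin-binding relative (-0.80, edgeR adjusted p = 0.00299), while Rca1, a regulator of the anaphase-promoting complex that was named after its values were seen, rose by 0.69. The other higher call, goe (1.12, edgeR adjusted p = 0.000328), was on the list but is known as a neprilysin-like metallopeptidase gene, not as a ligase. Of 14 tested adhesion genes other than Ten-m, 3 were called lower and 0 higher, without the chromosome 4 gene Cals, which was left out as in the rule and was also called lower (-0.77, edgeR adjusted p = 0.00684). The gene kek6 fell by 1.48 (edgeR adjusted p = 0.000863) and shg, which encodes E-cadherin, by 0.64 (edgeR adjusted p = 0.00174). Cad87A fell by 0.52, a call lost without MEK F53S replicate 1 or replicate 3.

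Of 22 tested genes of HSP70, HSP90 and their partners other than HIP, 2 were called lower and 4 higher, with HIP-R and Hsc70-4, the constitutive HSP70 (0.53, edgeR adjusted p = 0.00738), among the higher. Of 6 tested guanylyl cyclase and cGMP genes other than CG10738, Gyc76C and for fell by 0.35 each on counts. Both calls were lost in 4 of the 6 fits with a library left out and in both limma fits on TPM. The means of for were 528 ± 51.1 TPM with wild-type MEK and 519 ± 36.4 TPM with MEK F53S. The phosphodiesterase gene Pde9 rose by 0.98 (edgeR adjusted p = 0.000685). Of 12 tested SLC5 and SLC17 transporter genes, MFS17 fell by 0.84 and 2 were called higher, dmGlut and MFS10, calls that were lost in 4 and 5 of the 6 fits with a library left out. Of 7 tested bHLH-PAS factors, a list with none of the 63 in it, trh fell by 2.48 (edgeR adjusted p = 0.000175) from 3.44 TPM, under the level required here, and 3 were called higher, with gce at 2.21 and cyc and Met at 0.90 and 0.59. The calls of cyc and Met were lost in 5 and 3 of the 6 fits with a library left out.

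Known partners of the 63, picked from textbook knowledge after the transcripts were listed, are given as values only. Of 42 partners of 14 transcripts with a mean of at least 5 TPM with wild-type MEK, 13 (31.0%) had all MEK F53S libraries under all wild-type MEK libraries and 6 (14.3%) the reverse, where among the 6340 genes these shares were 16.8% and 25.8%. None of the 42 was 2 times lower, but they lie outside the 63, so the rule largely fixes this. Beside Nipped-B, the cohesin subunit gene vtd had 198 ± 24.5 and 131 ± 6.07 TPM, SMC1 was higher with MEK F53S (21.1 ± 8.78 and 49.8 ± 17.2 TPM), and SMC3, Mau2 and pds5 overlapped. The cohesin release factor gene wapl was lower, at 264 ± 23.2 and 189 ± 15.4 TPM. Beside Dcr-1, Dcr-2, the Dicer of small interfering RNAs, was lower (57.99 ± 1.60 to 38.2 ± 4.40 TPM), as were drosha and AGO1 (99.6 ± 7.15 to 73.3 ± 7.59 TPM and 222 ± 25.7 to 160.4 ± 28.2 TPM), and pasha and loqs overlapped. Beside nonC, Upf2, Smg5 and Smg6 were lower without overlap and Upf1 and Upf3 overlapped. For Smg5 the groups were barely apart, with a lowest wild-type MEK value of 68.6 TPM and a highest MEK F53S value of 68.3 TPM.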

How the data were processed

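Salmon 0.8.2 and the build dm6 are named in the submitters' processing notes, and the libraries were directional per the labels' protocols. The annotation, strand and bias settings were not stated. Per the file headers, the authors deposited for each library an estimated count, a TPM value and an effective length per gene; TPM is scaled for length and depth, and the estimated counts are not. Other deposited values used were the effective lengths in bases, per the file headers.

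Of 13943 features, 13831 were matched to symbols and positions in an annotation of the same assembly. Transcripts were chosen on deposited TPM. Counts were rounded, filtered with filterByExpr (minimum count 10, total 15; 7539 genes left) and tested with edgeR 4.0.16 (R 4.3.3; quasi-likelihood, TMM, Benjamini-Hochberg, threshold 0.05); alternatives used DESeq2 1.42.0 and limma 3.58.1. The test was tested on simulated data in 3 draws, where it recovered 66.7% of the genes changed 2-fold. Flanking genes are the nearest on each side with a row in the tables, without genes the rule names out. Named transcripts are the 12 most abundant, the 12 with the largest ratio, list members, edge cases and neighbours, with others named by role; other genes named are among the 4 smallest p on a list, were called neighbours, or are named as chosen later. Genes the rule names out were also kept out of list counts. The partner counts do include PlexA, a chromosome 4 gene that was lower without overlap. They include HIP-R but not the GstE and Hsp70 copies. The transcripts and the lists were chosen with earlier results of these data known. Promoter motifs were not examined here. Where nothing shows separate cultures, p-values measure the spread between these samples.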

Additional observations from a re-analysis of the deposited data

How the results depend on the processing

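The rule took 112 genes with a minimum of 1 TPM and 99 on TMM-normalised CPM, 58 of them shared with the 63. With both libraries that stood apart left out, an alternative chosen after seeing the data, it took 125, and with a single library left out 58 to 109. The median log2 ratio of the 63 stayed between -1.42 and -1.27 with a library left out.

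The genes called lower in MEK F53S numbered 583 and 571 in limma on log2(TPM + 1) and log2(TPM + 0.1), against 970. With a library left out, 506 to 1310 were lower, and the genes called higher in MEK F53S numbered 424 to 1304. With both libraries out they were 1758 and 1796. Flanking genes called lower ran from 7 to 13 and higher from 4 to 10 with a library left out, and 19 were lower with both out.

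Without the count filter, the cGMP list had 1 lower and 2 higher and the ubiquitin ligases 4 higher. In DESeq2, SLC transporters had 2 lower, adhesion genes 5 lower and ubiquitin ligases 6 higher. In both limma fits, the cGMP and HSP lists had 0 lower and ubiquitin ligases 4 higher. With an effective length offset, the cGMP list had 1 lower and the HSP list 0 lower and 2 higher, and Droj2 turned from -0.35 to 0.40 (log2, edgeR adjusted p = 0.164). The cause of these shifts was not tested.

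With both libraries out, SLC transporters had 3 lower and 1 higher, adhesion genes 6 lower, the HSP list 4 lower and 7 higher, ubiquitin ligases 27 lower and 10 higher, and bHLH-PAS factors 2 lower. With a library left out, the lower and higher calls ran from 0 to 3 and 1 to 1 (cGMP), 1 to 2 and 0 to 2 (SLC), 2 to 5 and 0 to 0 (adhesion), 0 to 3 and 2 to 5 (HSP), 4 to 18 and 1 to 7 (ubiquitin ligases), and 1 to 2 and 1 to 3 (bHLH-PAS).

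With the replicate number as a block, the genes called lower in MEK F53S numbered 742 and the genes called higher in MEK F53S 744, and the cGMP and HSP lists had 0 lower. Libraries with the same number had correlations of -0.14, -0.13 and 0.19 between groups, so the numbers were not taken as pairs. Low counts, down to 19 in a wild-type MEK library, limit the precision of the scarcest transcripts.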
